A study of Mus musculus with 80 samples.

Results

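The Cyp3a genes encode cytochrome P450 enzymes of the endoplasmic reticulum that oxidise steroids, bile acids and many drugs. In mouse liver their transcription is known to be raised by the xenobiotic receptors PXR (gene Nr1i2) and CAR (gene Nr1i3), which bind DNA together with RXR (gene Rxra) at paired nuclear receptor hexamers. Several members are also known as female-predominant, among them Cyp3a16, Cyp3a41a, Cyp3a41b and Cyp3a44, and sex differences of this kind in liver depend on the pattern of growth hormone release. The 8 genes described here were chosen by symbol: Cyp3a11, Cyp3a13, Cyp3a16, Cyp3a25, Cyp3a41a, Cyp3a41b, Cyp3a44 and Cyp3a59. All 8 were among the 22103 rows of the deposited expected count table, and all 8 were among the 15197 rows that passed the filter on low counts.

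The RNA came from the livers of 20 female Balb-C mice aged 10 to 12 weeks, with 1 library per mouse. PFESA-BP2 (Nafion byproduct 2), a perfluoroalkyl ether sulfonic acid, was fed by gavage for 7 days. The daily doses were 0.03 mg/kg, 0.3 mg/kg, 3.0 mg/kg and 6.0 mg/kg, with 4 mice in each group, and 4 control mice had vehicle alone. The sample titles give the vehicle as DMSO and the treatment text gives deionized water, and which is right was not settled here. The labels list no transgene, deletion or second agent in any group. Library totals ran from 13086755 to 21466978 counts, and levels are CPM values, for which each library total was first multiplied by its TMM scaling factor.

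Of the 20 libraries, 5 stood apart from the others of their own group, namely library 3 of the controls and libraries 11, 15, 19 and 23 of the rising doses. Each was the third of its group by library number, and what that position stands for is not given in the labels. On the first component of the variation within groups, which held 42.7% of it, they scored 34.7 or higher and the other 15 scored -2.61 or lower. The library standing apart was the highest of its group for Cyp3a11 in 5 of 5 groups. For Cyp3a13, Cyp3a16, Cyp3a41a, Cyp3a41b and Cyp3a44 this held in 4 of 5 groups each, for Cyp3a25 in 3 and for Cyp3a59 in 2. Results are therefore given with and without these libraries where the call differed. These libraries were picked by the spread within groups in the same data. Leaving them out or fitting a term for them thus lowers that spread by construction, and calls gained in this way are no independent support. Hepatocyte markers were abundant in every library, as the tissue label states. Their summed level was 153970 to 201510 CPM in the controls and 96554 to 129120 CPM at 6.0 mg/kg-day, and 6 of 12 were called lower and 0 higher. Over all tested rows 11.2% were called lower at this dose and 11.2% higher. In whole liver RNA, fewer cells of a type and less RNA per cell cannot be told apart. Lymphoid markers summed to 4.69 to 9.00 CPM in the controls and 4.46 to 116 CPM at 6.0 mg/kg-day, with 2 of 6 tested markers called higher. Myeloid markers summed to 2.59 to 3.80 CPM and 6.28 to 24.8 CPM in the same groups. The part of these markers in the Cyp3a results was not tested.

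In the GENCODE M21 annotation of GRCm38, 7 of the 8 genes lay in a cluster on chromosome 5. In order along the chromosome these were Cyp3a16 (145436309 to 145469723), Cyp3a41b (145558664 to 145584730), Cyp3a41a (145694049 to 145720136), Cyp3a44 (145773983 to 145805874), Cyp3a11 (145854426 to 145879964), Cyp3a25 (145977194 to 146009618) and Cyp3a59 (146079257 to 146113287). Cyp3a59 was on the forward strand and the other 6 were on the reverse strand. Cyp3a13 lay apart on the same chromosome, at 137892932 to 137921619 on the reverse strand. The coding sequences of Cyp3a41a and Cyp3a41b differed at 2 of 1515 bases (99.9% identity), and those of Cyp3a25 and Cyp3a59 were 97.5% identical. Cyp3a11, Cyp3a16, Cyp3a41a, Cyp3a41b and Cyp3a44 were 92.4% to 95.8% identical to each other outside the Cyp3a41 pair, whereas Cyp3a13 reached at most 76.8% with any member.

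This similarity bears on how reads could be assigned. All 75-base windows of each annotated transcript were sought in the other members, in Cyp3a57 and in the pseudogene Cyp3a63-ps. Of these windows, 95.3% in Cyp3a41a and 90.9% in Cyp3a41b occurred exactly in another of these genes. Cyp3a41b alone held 91.1% of the Cyp3a41a windows, so the division of counts between these 2 genes is uncertain. The share was 11.2% for Cyp3a25, 11.0% for Cyp3a44, 10.8% for Cyp3a59, 3.7% for Cyp3a11, 1.6% for Cyp3a16 and 0.0% for Cyp3a13. With 50-base windows the share was higher for every member except Cyp3a13. It was 26.8% for Cyp3a25, 26.5% for Cyp3a44, 14.8% for Cyp3a11 and 10.7% for Cyp3a16. Cyp3a25 alone held 24.7% of the 50-base Cyp3a59 windows. The effect of such sharing on the counts of these members was not tested. The deposited ratio of Cyp3a41a to Cyp3a41b stayed between 5.25 and 10.4 in all 20 libraries. For this reason the Cyp3a41 genes are also described as a sum.

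The stretch of promoter from 200 to 101 bases before the RefSeq start (GRCm38.p6) is shown for some members that rose and some that fell, because the paired hexamers found by the search lie in it. Cyp3a13, which also rose, is not printed and holds no hexamer in this stretch, as its only match lies after the start. Cyp3a41b, which also fell, is not printed because its bases here are the same as those of Cyp3a41a. Capitals mark the nuclear receptor hexamer, searched as AGNTCA on both strands, and each sequence runs 5′ to 3′ on the gene's own strand.
Cyp3a11, chr5:145879955-145880054, reverse strand: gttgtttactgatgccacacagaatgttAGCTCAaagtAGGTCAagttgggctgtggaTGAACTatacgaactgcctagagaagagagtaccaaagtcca
Cyp3a25, chr5:146009719-146009818, reverse strand: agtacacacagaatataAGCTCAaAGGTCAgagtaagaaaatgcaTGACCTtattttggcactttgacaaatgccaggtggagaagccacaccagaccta
Cyp3a59, chr5:146079058-146079157, forward strand: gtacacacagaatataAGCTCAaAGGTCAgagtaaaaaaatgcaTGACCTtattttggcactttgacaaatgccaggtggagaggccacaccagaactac
Cyp3a16, chr5:145469824-145469923, reverse strand: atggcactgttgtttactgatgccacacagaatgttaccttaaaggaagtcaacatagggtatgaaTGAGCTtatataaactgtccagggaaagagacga
Cyp3a41a, chr5:145720237-145720336, reverse strand: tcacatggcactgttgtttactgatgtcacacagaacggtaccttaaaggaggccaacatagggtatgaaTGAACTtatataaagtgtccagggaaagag
Cyp3a44, chr5:145805975-145806074, reverse strand: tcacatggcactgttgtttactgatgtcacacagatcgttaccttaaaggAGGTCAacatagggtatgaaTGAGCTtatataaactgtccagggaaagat

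All 8 members had a RefSeq promoter of 300 bases, which runs from 250 before to 50 after the start. A direct repeat of the hexamer with 4 bases between (AGNTCANNNNAGNTCA, DR4) was found in Cyp3a11, where it began 172 bases before the start, and in no other member. It occurred in 0.12% of 32851 RefSeq promoters of that length. Cyp3a25 and Cyp3a59 held the repeat with 1 base between (AGNTCANAGNTCA, DR1), which occurred in 0.22% of promoters. Against the 16 bases of the Cyp3a11 repeat, the aligned stretch differed at 4 bases in Cyp3a16, Cyp3a41a and Cyp3a41b and at 3 in Cyp3a44. That stretch reads AGCTCAaagtAGGTCA in Cyp3a11, accttaaaggaagtca in Cyp3a16, accttaaaggaggcca in both Cyp3a41 genes and accttaaaggAGGTCA in Cyp3a44. Single hexamers were present in these promoters and in that of Cyp3a13, and occurred in 46.57% of promoters. Repeats with 3 bases between (AGNTCANNNAGNTCA), everted repeats with 6 or 8 bases between (TGANCTNNNNNNAGNTCA and TGANCTNNNNNNNNAGNTCA) and the STAT5 motif TTCNNNGAA (8.30% of promoters) were found in no member. These matches describe letters in a window and show no binding.

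PFESA-BP2 divided the family. At 6.0 mg/kg-day Cyp3a11, Cyp3a59, Cyp3a25 and Cyp3a13 rose by 2.34-fold to 11.5-fold over control, and Cyp3a16, Cyp3a41b, Cyp3a41a and Cyp3a44 fell to levels 3.38-fold to 11.8-fold lower. All 8 members passed at this dose, 4 in each direction, and in all 8 the treated mice lay wholly to one side of the control mice. Calls were made with edgeR's quasi-likelihood test at a Benjamini-Hochberg adjusted p under 0.05 over all 15197 rows. Of these rows 22.4% were called at this dose, 11.2% higher and 11.2% lower, and in 18.5% the groups did not overlap. The median log2 change was -0.27 over the 8 members and -0.02 over all rows.

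**Figure D1:**
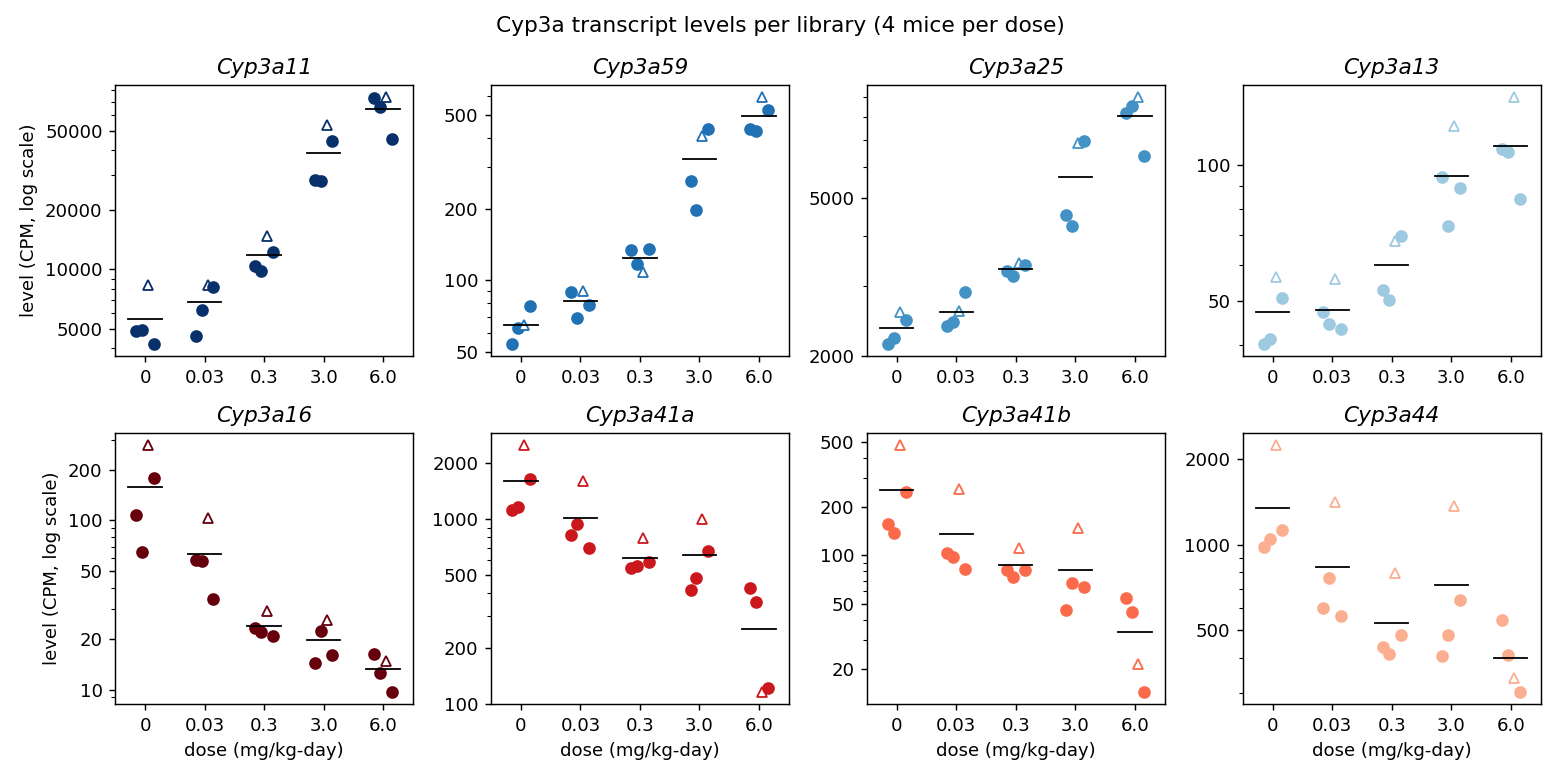
Level of each Cyp3a member in every library, in CPM on a log axis, against dose in mg/kg-day. Each point is 1 library from 1 mouse, bars are group means, and open triangles are the 5 libraries that stood apart. The upper row shows the 4 members that rose at 6.0 mg/kg-day and the lower row the 4 that fell.

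Cyp3a11, the major drug-inducible Cyp3a enzyme of mouse liver, had the highest level per transcript length of the 8 in every dose group. In the controls it measured 4893, 4926, 8371 and 4216 CPM in libraries 1 to 4. At 0.03 mg/kg-day the values were 4595, 6275, 8372 and 8156 CPM, which overlapped the controls. The group at 0.3 mg/kg-day had 10390, 9859, 14770 and 12294 CPM, all above the highest control. The mice at 3.0 mg/kg-day had 28280, 27916, 53606 and 44211 CPM, and those at 6.0 mg/kg-day had 72737, 65530, 73735 and 45645 CPM. Each of the groups at 0.3 and 3.0 mg/kg-day lay wholly above the group below it, while the 2 highest dose groups overlapped. The log2 change against control was 2.78 (SE 0.28, adjusted p = 2.33e-06) at 3.0 mg/kg-day and 3.52 (SE 0.29, adjusted p = 4.06e-08) at 6.0 mg/kg-day by edgeR. At 0.3 mg/kg-day it was 1.08 (SE 0.27, adjusted p = 0.0983), a value that did not pass. Without control library 3 the change at 0.3 mg/kg-day was 1.34 with an adjusted p of 0.0488, and with all 5 libraries standing apart left out it was 1.22 with an adjusted p of 0.0170. It also passed with a term for those libraries (adjusted p = 0.00291) and with DESeq2 (adjusted p = 0.00613).

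Cyp3a59 is a neighbour of Cyp3a25 in the cluster and resembles it closely in sequence. Its control values were 53.9, 62.8, 64.9 and 78.0 CPM. In the group at 0.3 mg/kg-day the values were 135, 117, 109 and 135 CPM, all above every control. They were 263, 198, 405 and 434 CPM at 3.0 mg/kg-day and 435, 428, 592 and 521 CPM at 6.0 mg/kg-day. By edgeR Cyp3a59 was the only member called higher at 0.3 mg/kg-day, with a log2 change of 0.93 (SE 0.20, adjusted p = 0.0479). That call sat at the threshold: it was lost on leaving out library 1, 2, 3, 13, 14, 15 or 16 in turn, with adjusted p-values up to 0.184, and with library totals alone (adjusted p = 0.0825) or no filter on low counts (adjusted p = 0.0530). The change was 2.33 (SE 0.20, adjusted p = 5.10e-07) at 3.0 mg/kg-day and 2.93 (SE 0.21, adjusted p = 6.58e-09) at 6.0 mg/kg-day.

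Cyp3a25, a liver Cyp3a enzyme at high level, had narrow groups. The controls measured 2143, 2221, 2576 and 2468 CPM, and the mice at 0.3 mg/kg-day 3264, 3178, 3426 and 3380 CPM. These groups did not overlap, but the log2 change of 0.49 (SE 0.16, edgeR adjusted p = 0.279) did not pass. The values at 3.0 mg/kg-day were 4530, 4253, 6895 and 6949 CPM, where libraries 19 and 20 lay above libraries 17 and 18. The highest dose gave 8202, 8549, 8971 and 6384 CPM. The change was 1.27 (SE 0.16, adjusted p = 4.08e-05) at 3.0 mg/kg-day and 1.77 (SE 0.16, adjusted p = 1.77e-07) at 6.0 mg/kg-day.

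Cyp3a13, a member outside the cluster that is also known from intestine, had the smallest change of those that rose. Its controls were 40.1, 41.2, 56.6 and 50.6 CPM, and the values at 0.3 mg/kg-day were 52.9, 50.3, 67.8 and 69.5 CPM, which overlapped. At 3.0 mg/kg-day the libraries held 94.3, 73.4, 122 and 89.0 CPM and at 6.0 mg/kg-day 109, 107, 141 and 84.1 CPM. Both doses lay above every control. The log2 change was 1.01 (SE 0.18, edgeR adjusted p = 0.00114) at 3.0 mg/kg-day and 1.23 (SE 0.18, adjusted p = 3.57e-05) at 6.0 mg/kg-day.

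Cyp3a16, known as a fetal and female-predominant member, was the only member of the 4 that fell to pass at 0.3 mg/kg-day by edgeR, while DESeq2 also called Cyp3a41a (adjusted p = 0.0391) and Cyp3a44 (adjusted p = 0.0336) there. Control levels were spread, at 108, 64.9, 278 and 177 CPM. At 0.03 mg/kg-day the mice had 58.4, 57.97, 103 and 34.4 CPM, where 3 of 4 lay below every control. By 0.3 mg/kg-day the values were 23.1, 21.8, 29.0 and 20.8 CPM, all below the lowest control, and they were 14.5, 22.2, 25.7 and 16.0 CPM at 3.0 mg/kg-day. The highest dose gave 16.2, 12.6, 14.7 and 9.70 CPM. The log2 change was -1.31 (SE 0.35, edgeR adjusted p = 0.825, unadjusted p = 0.00130) at 0.03 mg/kg-day, which did not pass. With a term for the libraries standing apart in the fit, this change was -1.28 with an adjusted p of 0.0400. All higher doses passed, with changes in rising order of -2.73 (SE 0.37, adjusted p = 0.000833), -3.004 (SE 0.37, adjusted p = 2.70e-05) and -3.56 (SE 0.38, adjusted p = 1.10e-06).

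Cyp3a41a and Cyp3a41b are female-predominant genes whose counts are hard to separate. Cyp3a41a measured 1124, 1163, 2506 and 1637 CPM in the controls. It was 545, 554, 788 and 586 CPM at 0.3 mg/kg-day and 413, 477, 1005 and 671 CPM at 3.0 mg/kg-day, both wholly below the controls. The 6.0 mg/kg-day group split into libraries 21 and 22 at 422 and 356 CPM and libraries 23 and 24 at 116 and 122 CPM. Cyp3a41b had the same split, at 54.3 and 45.0 CPM against 21.4 and 14.4 CPM, with controls of 157, 138, 477 and 246 CPM. Against control the highest dose gave a log2 change of -2.66 (SE 0.42, edgeR adjusted p = 8.66e-05) for Cyp3a41a and -2.91 (SE 0.49, adjusted p = 0.000189) for Cyp3a41b. With the 5 libraries standing apart left out, these were -2.10 and -2.22 and still passed.

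The 3.0 mg/kg-day results for this pair were less firm. Cyp3a41b passed at -1.64 (SE 0.46, edgeR adjusted p = 0.0472) although its groups overlapped, and Cyp3a41a did not pass at -1.32 (SE 0.40, adjusted p = 0.0640). The Cyp3a41b call was lost on leaving out library 3, 4, 17, 18 or 20 in turn, with adjusted p-values up to 0.204. It was also lost with library totals alone, no filter on low counts, or only the 2 groups in the fit (adjusted p = 0.0611, 0.0504 and 0.0869). Without library 19, Cyp3a41a passed at -1.63 (adjusted p = 0.0324), and with all 5 libraries standing apart left out it passed at -1.32 (adjusted p = 0.0137). Summed into a single row, the pair changed by -1.36 (SE 0.40, adjusted p = 0.0596) at 3.0 mg/kg-day and by -2.69 (SE 0.42, adjusted p = 8.99e-05) at 6.0 mg/kg-day.

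Cyp3a44, another female-predominant member, had controls of 981, 1048, 2241 and 1130 CPM. The values at 0.3 mg/kg-day were 435, 414, 793 and 483 CPM, below every control. At 3.0 mg/kg-day they were 405, 479, 1365 and 640 CPM, where library 19 alone reached the range of the controls. The mice at 6.0 mg/kg-day had 544, 409, 340 and 303 CPM. The log2 change was -1.35 (SE 0.38, edgeR adjusted p = 0.165) at 0.3 mg/kg-day and -0.90 (SE 0.37, adjusted p = 0.240) at 3.0 mg/kg-day, neither of which passed. With the 5 libraries standing apart left out, the change at 0.3 mg/kg-day was -1.24 and passed (adjusted p = 0.00439). Without library 19 the change at 3.0 mg/kg-day was -1.41 with an adjusted p of 0.0264, and with all 5 libraries standing apart left out it was -1.04 with an adjusted p of 0.00255. Cyp3a44 fell by 1.76 on the log2 scale at the highest dose (SE 0.38, edgeR adjusted p = 0.00217).

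**Figure D2:**
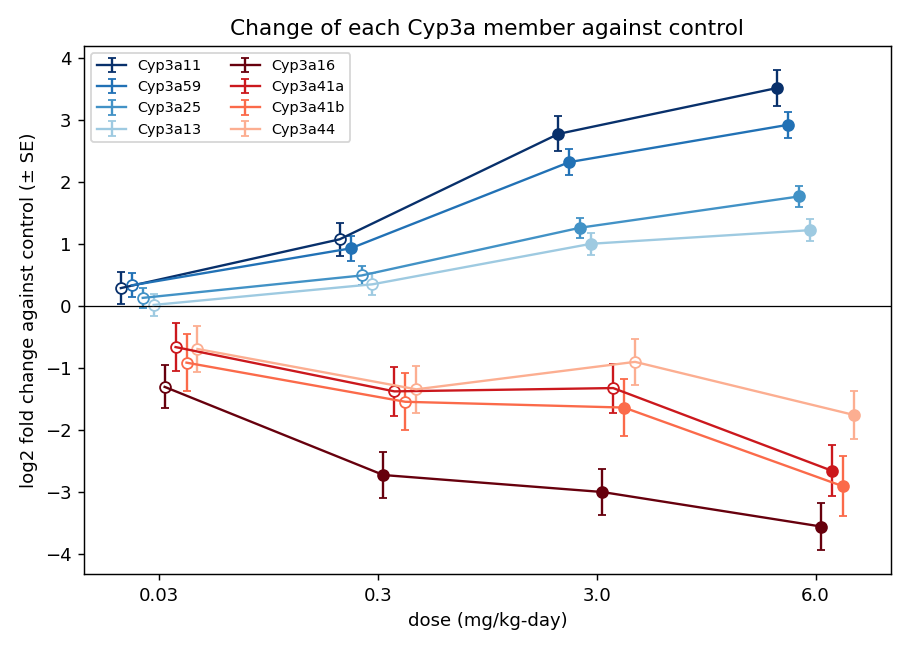
Log2 fold change of each member against the same 4 controls, with its SE, at each dose in mg/kg-day. Filled points passed at an adjusted p under 0.05 and open points did not. At 6.0 mg/kg-day all 8 are filled, from -3.56 for Cyp3a16 to 3.52 for Cyp3a11.

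Counted over the family, 0 of 8 members passed at 0.03 mg/kg-day, where 0.00% of all rows were called by edgeR. There 565 rows had an unadjusted p under 0.05, of which 1 was a member, and DESeq2 called 10 rows and limma-voom 1, none of them members. At 0.3 mg/kg-day 2 of 8 passed, Cyp3a59 higher and Cyp3a16 lower, against 0.290% of all rows. At 3.0 mg/kg-day 4 were called higher and 2 lower, against 4.61% of rows. The joint test over all doses and the slope on dose rank each called 8 of 8, against 21.4% and 26.4% of rows. The slope per dose step was 0.95 log2 units (SE 0.07) for Cyp3a11 and -0.89 (SE 0.09) for Cyp3a16. Since each dose is set against the same controls, these comparisons are not independent of each other.

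Neighbouring doses were also compared with each other. From 0.03 to 0.3 mg/kg-day 0 of 8 members passed, against 0.0197% of rows. From 0.3 to 3.0 mg/kg-day Cyp3a11, Cyp3a59, Cyp3a25 and Cyp3a13 all passed and none of the 4 others did, against 3.28% of rows. The steps were 1.70 (SE 0.27, edgeR adjusted p = 0.000822) for Cyp3a11, 1.39 (SE 0.20, adjusted p = 0.000230) for Cyp3a59 and 0.77 (SE 0.16, adjusted p = 0.00861) for Cyp3a25. For Cyp3a13 the step was 0.66 (SE 0.17, adjusted p = 0.0422), a call lost on leaving out library 13, 14, 15, 16, 17, 19 or 20 in turn. That call was also lost with library totals alone (edgeR adjusted p = 0.0913) or no filter on low counts (adjusted p = 0.0535). Over the same interval the members that fell had steps of -0.27 (Cyp3a16), 0.05 (Cyp3a41a), -0.09 (Cyp3a41b) and 0.44 (Cyp3a44), with SEs of 0.35 to 0.45. The difference in step between these sets of genes was not tested. From 3.0 to 6.0 mg/kg-day 0 of 8 passed, against 2.09% of rows. In that interval Cyp3a41a had the largest step in size, -1.34 (SE 0.40, adjusted p = 0.0887), and it passed without library 21 (adjusted p = 0.0380). With the 5 libraries standing apart left out it was -0.78 (adjusted p = 0.106). Cyp3a59, at 0.60 (SE 0.19, adjusted p = 0.117), passed without library 20 (adjusted p = 0.0494). Leaving out the same 5 libraries, Cyp3a11 passed at 0.88 (adjusted p = 0.0186) and Cyp3a25 at 0.56 (adjusted p = 0.0397), while Cyp3a59 did not (adjusted p = 0.0598).

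The changes in opposite directions altered the make-up of the family's transcripts. Cyp3a11 held 42.1% to 51.5% of the 8 members' counts in the controls, with a mean of 48.8% ± 4.44 (SD, n = 4). Its share had means of 58.6% at 0.03, 71.1% at 0.3, 83.5% at 3.0 and 87.2% ± 0.983 (SD, n = 4) at 6.0 mg/kg-day. Cyp3a16, Cyp3a41a, Cyp3a41b and Cyp3a44 together held 28.8% ± 4.41 of these counts in the controls, 7.54% ± 0.727 at 0.3 and 0.945% ± 0.292 at 6.0 mg/kg-day (SD, n = 4 each). Their summed level did not overlap between controls, at 2370 to 5502 CPM, and 6.0 mg/kg-day, at 449.5 to 1036 CPM. Fitted as a single row it changed by -2.27 at 6.0 mg/kg-day (SE 0.38, edgeR adjusted p = 0.000181). The row did not pass at 0.3 mg/kg-day (-1.42, adjusted p = 0.124) or at 3.0 mg/kg-day (-1.20, adjusted p = 0.0712).

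**Figure D3:**
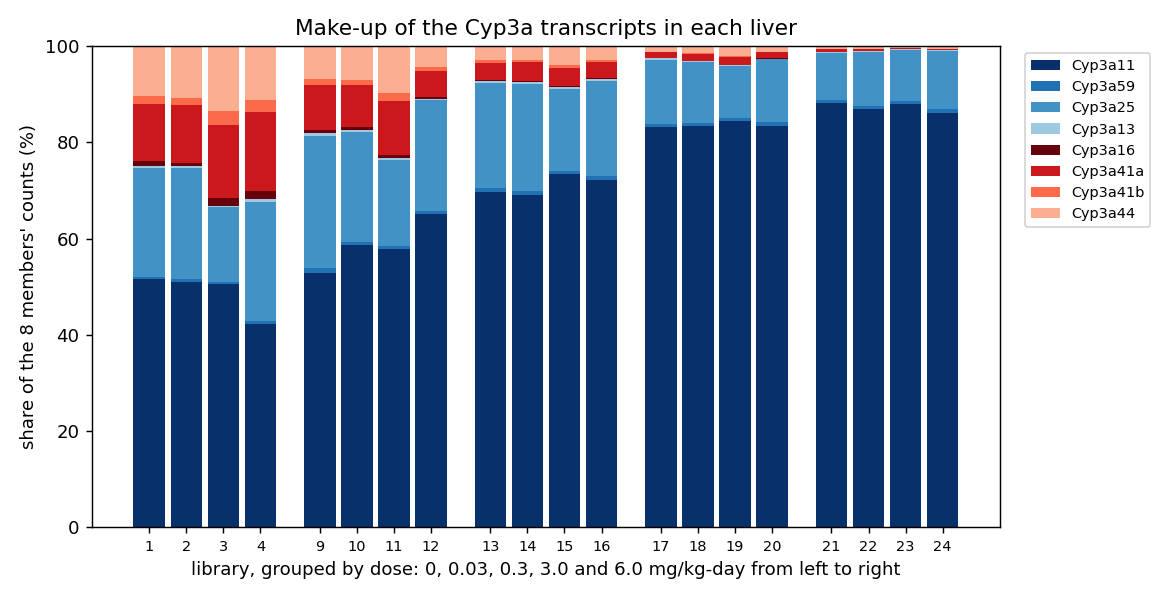
Share of each member in the summed counts of the 8 members, in percent, for every library, grouped by dose. The Cyp3a11 segment grows from 42.1% to 51.5% in the controls to 86.0% to 88.1% at 6.0 mg/kg-day, and the 4 red segments shrink to 1.26% or less.

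The family as a whole took a larger part of the liver's transcripts. The 8 members summed to 9501, 9665, 16571 and 10002 CPM in the controls. They summed to 34047, 33487, 63571 and 53075 CPM at 3.0 mg/kg-day and to 82520, 75436, 83932 and 53084 CPM at 6.0 mg/kg-day. As a share of all counts in the library this was 0.896% to 1.70% in the controls and 5.36% to 8.70% at 6.0 mg/kg-day. Cyp3a11 alone reached 4.61% to 7.64% of all counts at the highest dose.

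Per kilobase of annotated transcript, the order in the controls was Cyp3a11 at 2390 ± 800.1, Cyp3a25 at 1176 ± 102, Cyp3a41a at 780.3 ± 312, Cyp3a44 at 688 ± 304, Cyp3a41b at 123 ± 75.4, Cyp3a16 at 90.9 ± 53.8, Cyp3a59 at 32.6 ± 4.996 and Cyp3a13 at 15.9 ± 2.66 CPM per kb (SD, n = 4). The values of Cyp3a25 and Cyp3a41a overlapped, as did those of Cyp3a41a and Cyp3a44, of Cyp3a41b and Cyp3a16, and of Cyp3a16 and Cyp3a59. At 6.0 mg/kg-day the order was Cyp3a11 at 27480 ± 5561, Cyp3a25 at 4013 ± 570, Cyp3a59 at 248 ± 39.0, Cyp3a44 at 203 ± 54.0, Cyp3a41a at 123 ± 76.8, Cyp3a13 at 37.3 ± 7.98, Cyp3a41b at 16.4 ± 9.17 and Cyp3a16 at 7.70 ± 1.64 CPM per kb. Neighbours overlapped there for Cyp3a59 with Cyp3a44, Cyp3a44 with Cyp3a41a, and Cyp3a41b with Cyp3a16. Cyp3a59 thus moved from 7th to 3rd place and Cyp3a16 from 6th to 8th.

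Within each library, Cyp3a11 was also set against every other member as a log2 ratio of CPM with a pseudocount of 0.5 CPM. The ratio to Cyp3a25 was 1.20 ± 0.38 in the controls and 2.99 ± 0.13 at 6.0 mg/kg-day (SD, n = 4), a difference of 1.79, and the ratio to Cyp3a13 rose by 2.34. Against the members that fell, the ratio rose by 5.26 (Cyp3a44), 6.37 (Cyp3a41a), 6.45 (Cyp3a41b) and 6.89 (Cyp3a16). For these 6 the two-sided exact permutation test over 70 arrangements gave p = 0.0286, the smallest it can give, and an adjusted p of 0.0333 over the 7 ratios, with all 4 treated mice above all 4 controls. For the 4 members that fell this unadjusted p was fixed beforehand, because Cyp3a11 and the member had separated in opposite directions in the same libraries. The ratio to Cyp3a59 was 6.38 ± 0.52 and 7.01 ± 0.41, a difference of 0.63 that did not pass (exact permutation p = 0.143). A p that misses the threshold does not show that the 2 genes changed alike.

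**Figure D4:**
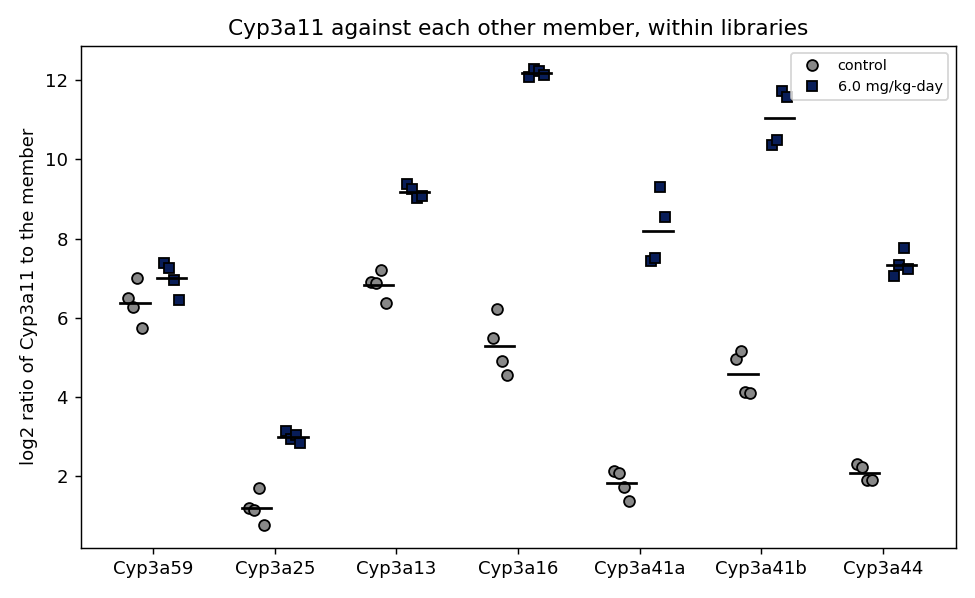
Log2 ratio of Cyp3a11 to each other member within the same library, for the 4 control and the 4 mice at 6.0 mg/kg-day, with group means as bars. The groups are separate for all members except Cyp3a59, where they overlap.

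Some pairs of members that moved apart with dose varied in the same direction within dose groups, and others showed little relation there. Over all 20 libraries the log2 levels of Cyp3a11 and Cyp3a44 had a Pearson r of -0.47. After each value was set against its group mean, r was 0.79. For Cyp3a11 and Cyp3a41b the values were -0.67 and 0.65, and for Cyp3a11 and Cyp3a16 they were -0.77 and 0.44. Cyp3a41a and Cyp3a41b had 0.98 and 0.94, and Cyp3a25 and Cyp3a59 had 0.98 and 0.67. Within groups the values were low for Cyp3a59 with Cyp3a41a (0.10), Cyp3a16 (0.12), Cyp3a41b (0.13) and Cyp3a44 (0.29), and for Cyp3a16 with Cyp3a25 (0.26). These are descriptions over libraries that share dose, scaling and the 5 libraries standing apart.

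**Figure D5:**
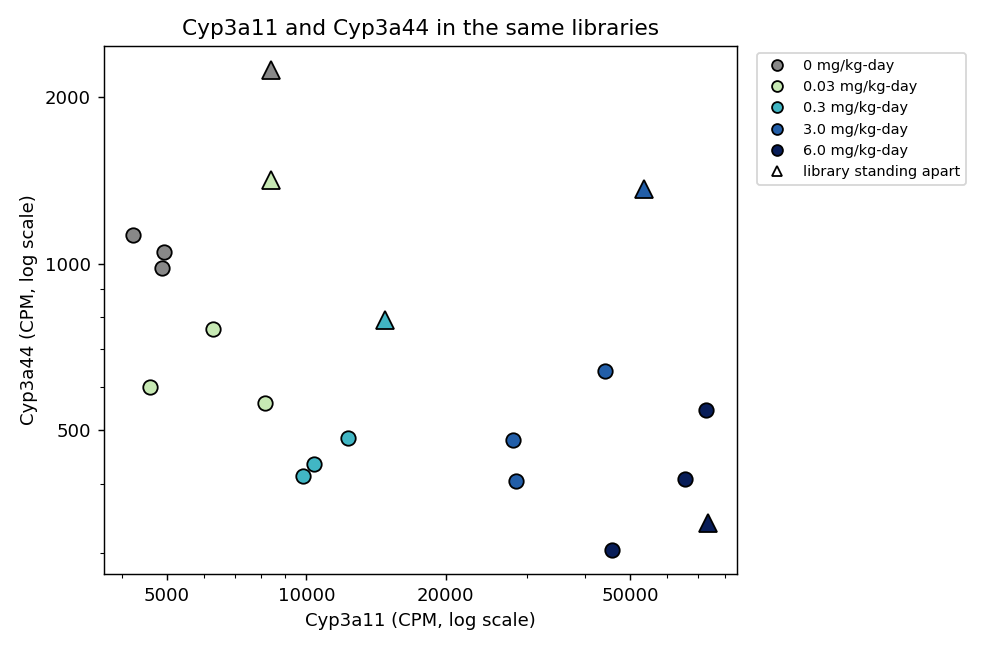
Cyp3a44 against Cyp3a11 in each of the 20 libraries, both in CPM on log axes, coloured by dose, with triangles for the 5 libraries standing apart. From control to 0.3 mg/kg-day the points move down and to the right. In the groups up to 3.0 mg/kg-day the triangle has the highest level of both genes, and at 6.0 mg/kg-day it has the highest Cyp3a11 only.

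Outside the members, the file held rows for Cyp3a57 and the pseudogene Cyp3a63-ps. Cyp3a57 was near the lower end of detection, at 0.807 ± 0.162 CPM in the controls and 2.25 ± 0.405 CPM at 6.0 mg/kg-day (SD, n = 4), and it rose by 1.46 (SE 0.25, edgeR adjusted p = 0.000279). Cyp3a63-ps, which lies between Cyp3a41b and Cyp3a41a, changed by 0.16 (SE 0.44, adjusted p = 0.836) and did not pass. Within 1 Mb of the cluster 37 other rows were in the table and 29 were tested. At 6.0 mg/kg-day 1 of the 29, Cyp3a57, was called higher and 0 lower, with a median log2 change of -0.14. Over all tested rows 22.4% were called at this dose, 11.2% higher and 11.2% lower.

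Receptors known to act on Cyp3a genes were measured in the same libraries. Nr1i2 (PXR) rose, with 63.5 ± 13.1 CPM in the controls and 96.2 ± 12.9 CPM at the highest dose (SD, n = 4), a log2 change of 0.60 (SE 0.17, edgeR adjusted p = 0.0130). Nr1i3 (CAR) fell from 228 ± 34.7 to 121 ± 8.61 CPM, a change of -0.92 (SE 0.14, adjusted p = 8.83e-05). Rxra had -0.73 (SE 0.27, adjusted p = 0.0557) and did not pass. In the list of 19 receptors and cofactors 10 were called lower and 1 higher, against 11.2% of all rows in each direction. The list's median change was -0.59. Those with the smallest adjusted p beside these were Foxa3, a hepatocyte forkhead factor, at -1.44, the coactivator Ppargc1a at -1.02 and Nr3c1, the glucocorticoid receptor, at -0.61.

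Other genes known as targets of CAR and PXR mostly rose, as the inducible Cyp3a members did. At the highest dose 30 of 33 such genes outside the family were called higher and 1 lower, and their median log2 change was 1.76. This list, like the other gene lists here, was chosen with earlier results of these data known. Its counts are therefore no independent support, and the part of CAR and PXR in these changes was not tested. The counts at lower doses were 0 at 0.03, 7 higher at 0.3 and 27 higher at 3.0 mg/kg-day. Over all rows 0.00%, 0.290% and 4.61% were called at these doses in either direction. At 6.0 mg/kg-day 11.2% were called higher and 11.2% lower. Cyp2b10, a P450 widely read as a CAR marker, went from 86.9 ± 23.6 CPM to 2247 ± 334 CPM (SD, n = 4), and Cyp2c55 from 2.75 ± 0.768 to 646 ± 72.3 CPM. The glutathione transferases Gstm3 and Gstm2 rose by 6.40 and 3.28 on the log2 scale. Among 17 genes of electron and heme supply to P450 enzymes 7 rose and 0 fell. They included Alas1, the rate-limiting enzyme of heme synthesis, at 2.48, Por, the P450 reductase, at 1.56, Cyb5r3 at 0.84 and Cyb5b at 0.54.

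At the highest dose 11.2% of all rows were called lower and 11.2% higher. Among 19 other genes known as female-predominant in mouse liver, 11 were called lower and 3 higher at that dose. Their median log2 change was -1.31. Their summed level overlapped, at 3665 to 4240 CPM in the controls and 2571 to 5180 CPM at 6.0 mg/kg-day. The genes of this list named here have the smallest adjusted p, and none of the 3 called higher is among them. Cyp2c69 went from 454 ± 162 to 10.8 ± 4.76 CPM and Cyp2c40 from 729 ± 169 to 37.9 ± 18.9 CPM (SD, n = 4). Cux2, a female-predominant transcription factor, changed by -4.28 and Fmo2 by -1.996. At 0.3 mg/kg-day, where Cyp3a16 had passed, 2 of the 19 were called lower, Cyp2c69 (edgeR adjusted p = 0.00395) and Cyp2c40 (adjusted p = 0.0352). The share of all rows called there was 0.290% in either direction. Of 17 tested male-predominant genes 5 rose and 5 fell, and those with the smallest adjusted p were Cyp4a12a at 7.89, Mup20 at 2.48, Cyp4a12b at 6.92 and Cyp2d9 at 1.35. These named genes all rose, and none of the 5 that fell is among them. Cyp4a12a and Cyp4a12b were near the lower end of detection in the controls, at 1.39 ± 0.775 and 0.0798 ± 0.0927 CPM (SD, n = 4). In growth hormone signalling 8 of 10 tested genes fell and 0 rose. Socs2, a feedback inhibitor induced by growth hormone, changed by -3.04, Igfals by -1.83, Igf1 by -1.74 and Stat5b by -0.80. Socs2 was called lower from 0.3 mg/kg-day on (-2.001, adjusted p = 0.0142).

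For each member the 3 genes most alike in log2 CPM over the 20 libraries were taken from 7554 rows with a mean of 10 CPM or more. Cyp3a11 was most like Mal2 (r = 0.97), 4931406C07Rik (r = 0.97) and Ces2e (r = 0.97). Cyp3a59 was most like 1700024P16Rik (r = 0.98), Cyp2c55 (r = 0.98) and 4931406C07Rik (r = 0.97). Cyp3a25 had 4931406C07Rik, Ugt2b34 and 1700024P16Rik (each r = 0.98), and Cyp3a13 had Tfrc (r = 0.95), Impact (r = 0.94) and Spryd7 (r = 0.94). The members that fell had lower values. Cyp3a16 was most like Serpina4-ps1 (r = 0.92), Cyp2c69 (r = 0.91) and Slc40a1 (r = 0.89), and Cyp3a41a most like Cyp2c40 (r = 0.90), G6pc (r = 0.89) and Igf1 (r = 0.89). Cyp3a41b had Esr1 (r = 0.90), Slc25a25 (r = 0.90) and G6pc (r = 0.88), and Cyp3a44 had B430119L08Rik (r = 0.87), Trp53inp2 (r = 0.84) and Dopey1 (r = 0.83). These values describe likeness over shared doses.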

How the data were processed

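Per the labels, total liver RNA of 20 mice was sequenced on 4 lanes per library (80 lane samples), and the deposited table has 1 column per library. Its unit was read from the values: the authors deposited expected counts per gene, of which 58.0% are whole, and the 4 largest Cyp3a11 values carry only 3 significant digits. Partek and GRCm38.p5 are named per the submitters' processing notes. Not given in the sources used here: the aligner, counting method, annotation and use of strand.

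Counts were rounded, 6906 low rows were left out (edgeR filterByExpr) and TMM factors applied. A quasi-likelihood test (edgeR 4.0.16, R 4.3.3) was fitted to group means of all 20 libraries with 15 residual degrees of freedom. The biological coefficient of variation in this fit was 0.219. The slope on dose rank came from a separate quasi-likelihood fit of an intercept and the rank, with its own dispersion estimates. P-values were adjusted by Benjamini-Hochberg over 15197 rows, with a threshold of 0.05, and the SE is the absolute log2 change divided by the square root of F. DESeq2 1.42.0, limma-voom (limma 3.58.1), other scaling, no filter and left-out libraries were alternatives. P-values measure the spread between mice. The members and gene lists were chosen with earlier results of these data known. Named genes are all members, their 3 most alike genes, the main receptors, and the genes with the smallest adjusted p of each list.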

Additional observations from a re-analysis of the deposited data

Results flagged for a closer look

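Of 40 sets of 4 libraries (8 members in 5 dose groups), 4 held a library whose gap to the next was large for the range of its set (Dixon's ratio above its critical value for 4 values). Chance gives about 1 in 20, or 2 of 40. In the controls library 3 had 8371 CPM of Cyp3a11 against 4926 CPM in the next library, and 2241 CPM of Cyp3a44 against 1130 CPM. Library 11, at 0.03 mg/kg-day, had 255 CPM of Cyp3a41b against 104 CPM. Library 15, at 0.3 mg/kg-day, had 788 CPM of Cyp3a41a against 586 CPM. All 4 values were the highest of their set, and all belonged to libraries that stood apart within their group. The ratio for Cyp3a11 was just past the critical value.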

How the results depend on the processing

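Mice were not paired between groups, as the library numbers are not shared and order within a group was not used for pairing. The 5 libraries standing apart do share a position in that order, and a term for these 5 was fitted as an alternative. All 8 members passed at 6.0 mg/kg-day, in the joint test and for the slope under every alternative run, and no member's called change reversed. The number of members called at 0.3 mg/kg-day, 2 as reported, was 1 with library totals alone or no filter, 5 with DESeq2, and 6 with a term for, or 4 without, the 5 libraries standing apart. The term also gave 1 at 0.03 mg/kg-day, 1 for 0.3 against 0.03 and 4 for 6.0 against 3.0 mg/kg-day, each 0 as reported. DESeq2 gave 1 and 3 for the last 2 of these, limma-voom gave 1 for 6.0 against 3.0, and leaving the 5 libraries out gave 2. Leaving out 1 library gave 1 to 2 members at 0.3, 5 to 8 at 3.0, 3 to 4 for 3.0 against 0.3 and 0 to 1 for 6.0 against 3.0 mg/kg-day. The cause of these differences was not tested.

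With a pseudocount of 0.1 or 2 CPM the ratio of Cyp3a11 to 6 members still passed (adjusted p = 0.0333 by exact permutation) and that to Cyp3a59 did not (adjusted p = 0.143). For the members that fell the unadjusted p was again fixed beforehand. With 1 library left out, only the differences were compared. They ranged from 0.42 to 0.84 for Cyp3a59 and from 1.64 to 7.20 for the other 6. Over all rows, the number called at 6.0 mg/kg-day was 3405, and 1726 with only the 2 groups fitted. It was 5639 with a term for the libraries standing apart and 5228 without them. At 0.3 mg/kg-day it was 44 as reported, 186 with DESeq2, 306 with the term and 158 without these libraries. At 3.0 mg/kg-day it was 701 as reported and 1393 with the term. The rank of dose was used for the slope, so it is no rate per mg. Separate counts for Cyp3a41a and Cyp3a41b rest on an assignment of reads that was not described.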
